A study of Homo sapiens with 6 samples.

Results

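VASP and 9 further genes of actin filament assembly (EVL, ENAH, ZYX, WAS, PFN1, CFL1, ACTB, ACTG1 and VCL) were followed in NB4 cells, an established line of acute promyelocytic leukemia. They are 10 of the 23368 gene symbols counted and were selected by symbol, with the lower VASP count in maltonis-treated cells already known from this same comparison. Their values, and the counts of them that pass a threshold, are therefore a description and not a test of these genes. RNA was sequenced from 3 libraries of not treated (n.t.) cells and 3 of cells exposed to 10 µM maltonis, a synthetic molecule derived from maltol, both collected at 24 h. The maltonis stock was prepared in water, and n.t. cells were left untreated. The comparison asks how this treatment changed gene expression in 1 cell line.

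Actin monomers join into filaments that push the cell membrane forward and anchor the cell to its surroundings, and white blood cells depend on this machinery to migrate and engulf particles. Proteins of the Ena/VASP family (VASP, EVL and ENAH) sit at the growing filament end, where they speed elongation and hinder capping. Zyxin (ZYX) and vinculin (VCL) place them at adhesion sites, WAS activates the Arp2/3 complex that starts branches, profilin (PFN1) delivers monomers, and cofilin (CFL1) takes old filaments apart.

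The 6 libraries held from 18492154 to 38205483 counts, and a floor of 3 counts lay at 0.0828 to 0.16 CPM, a limit of counting error only, where CPM are counts relative to library sizes corrected with the trimmed mean of M-values. All 10 genes lay above it in every library, and together they took from 0.882% to 1.11% of the counts of a library. Of 6 promyelocytic markers, 5 had well over the floor in every library, while ELANE, the neutrophil elastase, had 3, 6 and 2 counts in n.t. and 406, 565 and 409 counts in maltonis-treated libraries. At the FDR used below 3 of them were higher after maltonis (ELANE, CTSG and AZU1) and 2 lower (MPO and CD33), with a median log2 fold change of 0.49. Their summed level, 13683 to 16178 CPM in n.t. and 8567 to 9019 CPM in maltonis-treated libraries, was mostly that of the granule peroxidase MPO, which averaged 14612 and 7425 CPM. Of 9 markers of other cell types, 3 passed the filter on low counts, while MS4A1 and HBB had no count in any library. All 9 together summed to 70.2 to 74.0 CPM in n.t. and 41.4 to 48.5 CPM in maltonis-treated libraries. CD3D, the highest of them in n.t. cells, averaged 43.7 CPM there and 15.3 CPM after maltonis (log2 fold change −1.51). The part of either marker list in the results below was not tested. In bulk RNA, fewer cells of a kind and less RNA per cell cannot be told apart.

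Among the 10 genes, VASP showed by far the widest difference, with 18.2-fold less RNA after maltonis. Of its family, ENAH was 3.48-fold lower, while EVL was 1.40-fold higher. The cytoplasmic actin ACTG1 was 1.65-fold higher, whereas ACTB, its close relative, overlapped between the groups. At a false discovery rate (FDR) under 0.01, 3 of the 10 genes were higher (EVL, ACTG1 and VCL), where 31.9% of the 13209 genes tested were higher. Likewise 4 were lower (VASP, ENAH, ZYX and CFL1), where 32.1% of all genes were lower. When a change of more than 2.50-fold and an RPKM (counts scaled by library size and gene length) above 10 in the higher group were also required, VASP alone was downregulated and none was upregulated. Those criteria called 3.18% of all genes downregulated and 1.55% upregulated. All 3 n.t. libraries lay below all 3 maltonis-treated ones for 3 of the 10 genes (38.8% of all genes tested) and above them for 4 (37.8% of all genes tested). The median log2 fold change was −0.18 over the 10 genes and 0.01 over all genes tested. As VASP's value in this contrast guided the selection, nothing is read from these shares.

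**Figure D1:**
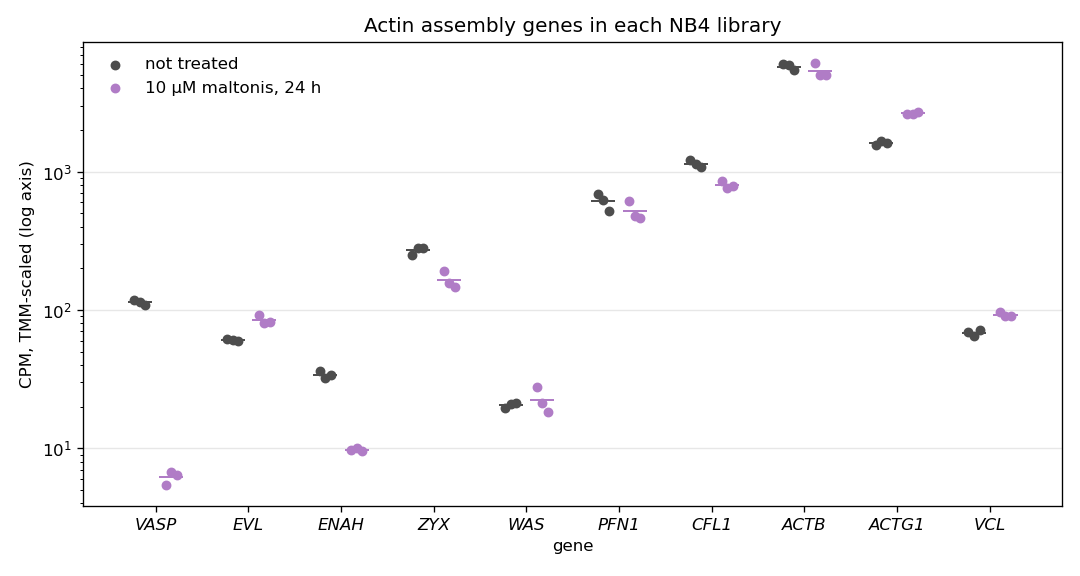
Level of the 10 genes in each library, as CPM on a log axis, with n.t. libraries in grey, maltonis-treated libraries in purple and a bar at each group mean (n = 3). VASP drops from a mean of 113 to 6.19 CPM and ENAH from 34.1 to 9.76 CPM, while the points of WAS, PFN1 and ACTB overlap between the groups.

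VASP itself, the founding member of its family and a target of cyclic nucleotide-dependent kinases, had 2226, 4115 and 3588 counts in n.t. replicates 1, 2 and 3. In the maltonis-treated replicates it had 105, 225 and 181 counts. Every treated library was thus far below every n.t. library, although the depths differed by less. On the scaled level this was 119, 114 and 108 CPM in n.t. and 5.42, 6.71 and 6.43 CPM in maltonis-treated cells. The mean went from 113 ± 5.18 to 6.19 ± 0.677 CPM (SD, n = 3), which leaves 5.50% of the n.t. level. The log2 fold change was −4.18 ± 0.09 (SE), the 58th lowest of the 13209 genes ranked. A code of unstated meaning in the library names sets replicate 1 of both groups apart from replicates 2 and 3. VASP was low on both sides of this division, with a log2 difference of −4.33 in replicate 1 and a log2 fold change of −4.08 in replicates 2 and 3 alone.

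ENAH, the mammalian counterpart of the fly protein Enabled, had 675, 1167 and 1128 counts in n.t. and 189, 334 and 269 in maltonis-treated replicates. These raw counts, not corrected for length, were the lowest of the 3 members in n.t. cells but above those of VASP after maltonis. Per length, ENAH stayed below VASP after maltonis, at 0.649 against 1.72 RPKM with the length of all annotated exons. Its level was 36.0, 32.2 and 34.0 CPM in n.t. cells. After maltonis it was 9.76, 9.96 and 9.55 CPM. The treated libraries lay close together and well under the n.t. ones, at a mean of 9.76 ± 0.206 against 34.1 ± 1.87 CPM (SD, n = 3). ENAH had a log2 fold change of −1.80 ± 0.08 (SE), and its log2 differences by replicate ranged from −1.83 to −1.64. It did not meet the RPKM criterion, since its n.t. level was 2.26 RPKM with the length of all annotated exons and 2.59 RPKM with that of RefSeq-linked exons.

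EVL, the Ena/VASP-like member, went the other way. It had 1163, 2193 and 1983 counts in n.t. and 1780, 2717 and 2299 counts in maltonis-treated replicates, equal to 61.9, 60.5 and 59.8 CPM and to 91.9, 81.0 and 81.6 CPM. The n.t. libraries were nearly level with each other, and all 3 treated libraries were above them. The means were 60.8 ± 1.09 and 84.9 ± 6.12 CPM (SD, n = 3), with a log2 fold change of 0.48 ± 0.07 (SE). Replicate 1 gave a log2 difference of 0.57, and replicates 2 and 3 alone a log2 fold change of 0.43.

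Levels of the 3 family members can be compared only per length, and the result depends on the length used. With all annotated exons (3601 bp for VASP, 10621 bp for EVL and 15044 bp for ENAH), their summed level was 39.5 ± 1.61 RPKM in n.t. and 10.4 ± 0.393 RPKM in maltonis-treated cells (SD, n = 3). VASP made up 80.0%, 80.1% and 79.2% of that sum in n.t. replicates 1, 2 and 3 and 13.9%, 18.4% and 17.7% in the treated ones. EVL thus took over as the leading member, from 14.5% ± 0.334 of the sum in n.t. to 77.1% ± 2.62 in treated cells. The share of ENAH was 5.73% ± 0.269 in n.t. and 6.27% ± 0.259 in treated cells on this scale. Exons linked to RefSeq are much shorter for EVL (1978 bp) and less so for VASP (2305 bp) and ENAH (13168 bp). On that scale VASP still led in n.t. cells, at 59.6% ± 0.687 of a sum of 82.5 ± 2.87 RPKM, and EVL stood at 37.2% ± 0.638. In maltonis-treated cells the sum was 46.3 ± 2.81 RPKM, of which VASP held 5.83% ± 0.952 and EVL 92.6% ± 1.05. The share of ENAH then went the other way, from 3.13% ± 0.143 to 1.60% ± 0.101. The change of leading member held with both lengths, whereas the size of the drop in the family total did not.

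**Figure D2:**
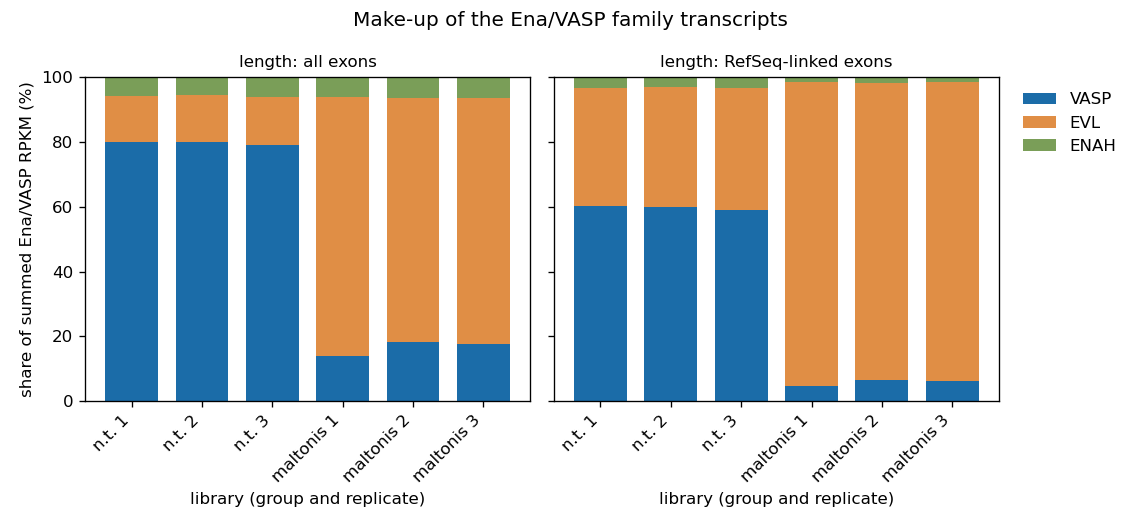
Share of VASP, EVL and ENAH in their summed RPKM (percent, axis from 0) in each of the 6 libraries, with the length of all annotated exons on the left and of RefSeq-linked exons on the right. VASP is the largest share in all n.t. libraries and EVL in all maltonis-treated ones, with EVL at 77.1% on average on the left and 92.6% on the right.

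The promoter sequences of VASP, EVL, ENAH and ACTG1 are shown because these genes moved apart within 1 family or pathway. They are the 250 bases before the RefSeq start, 5′ to 3′ on the strand of the gene, in GRCh38.p14, at chr19:45507229-45507478 (plus strand) for VASP, chr14:99971172-99971421 (plus) for the first of 2 EVL windows, chr1:225653124-225653373 (minus) for ENAH and chr17:81512800-81513049 (minus) for ACTG1. Capitals mark a CArG box, the element bound by serum response factor (SRF).
VASP: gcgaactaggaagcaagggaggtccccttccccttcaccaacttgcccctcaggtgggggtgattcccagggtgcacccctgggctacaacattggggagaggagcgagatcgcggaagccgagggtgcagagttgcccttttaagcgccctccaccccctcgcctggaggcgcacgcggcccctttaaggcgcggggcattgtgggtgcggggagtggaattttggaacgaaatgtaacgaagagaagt
EVL: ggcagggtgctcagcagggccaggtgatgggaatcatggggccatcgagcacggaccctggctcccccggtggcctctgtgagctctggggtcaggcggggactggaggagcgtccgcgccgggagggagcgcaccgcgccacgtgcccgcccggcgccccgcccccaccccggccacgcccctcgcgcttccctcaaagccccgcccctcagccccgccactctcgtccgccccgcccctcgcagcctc
ENAH: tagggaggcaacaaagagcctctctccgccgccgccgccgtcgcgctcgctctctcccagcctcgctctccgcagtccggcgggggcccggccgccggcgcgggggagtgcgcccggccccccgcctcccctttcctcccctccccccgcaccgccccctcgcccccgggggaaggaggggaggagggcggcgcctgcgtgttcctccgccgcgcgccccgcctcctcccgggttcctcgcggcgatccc
ACTG1: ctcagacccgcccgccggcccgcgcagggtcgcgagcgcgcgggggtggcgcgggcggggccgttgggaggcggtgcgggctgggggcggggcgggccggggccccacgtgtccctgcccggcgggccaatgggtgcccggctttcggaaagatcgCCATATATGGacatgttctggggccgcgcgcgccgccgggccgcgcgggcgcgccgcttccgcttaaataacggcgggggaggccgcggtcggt

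These stretches differ in base composition, with 61.6% G and C in VASP, 76.8% in EVL, 80.0% in ENAH and 78.8% in ACTG1. RefSeq windows, which also take in bases just after the start, were found for 9 of the 10 genes and searched on both strands. EVL and WAS had 2 windows each, and a gene was counted if any window held the motif. The shares of all windows count single windows, so the 2 measures are not strictly alike. ACTB had no window and was not searched. Among the 9 genes the CArG box occurred in ACTG1 alone, at positions −94 to −85 from the start, and in 1.3% of the 34796 windows of all genes. An E-box (CACGTG) was found in EVL and ACTG1, against 7.2% of all windows, and overlapped no other motif. GC boxes (GGGCGG) were present in 8 of the 9 genes, VASP being the exception, against 44.9% of all windows. In WAS the only GC box lay after the start, at positions 17 to 22. Adjoining GC boxes shared 1 base in EVL and ACTG1. TATAAA was present in the second EVL window (11.6% of all windows) and CCGGAAGT in none of the 9 (4.13% of all windows). None of the 5 letter patterns was thus in the VASP window, which says nothing about the factors that act there.

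Next to VASP in gene order lie PPM1N and RTN2 on one side and OPA3 and GPR4 on the other. OPA3, the immediate neighbour that encodes a mitochondrial protein, was higher after maltonis, at 25.8, 24.5 and 24.4 CPM in n.t. and 39.9, 34.5 and 33.7 CPM in treated libraries (log2 fold change 0.53 ± 0.08 SE, adjusted p = 0.000396, quasi-likelihood test of edgeR, Benjamini-Hochberg over all genes tested). RTN2 did not pass the test, with a log2 fold change of −0.15 ± 0.22 (SE). PPM1N had at most 10 counts in a library and GPR4 had none. The lower level of VASP was therefore not shared by the 1 neighbour with substantial counts.

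Profiles were compared by Euclidean distance between values of log2(CPM + 0.5) centred on the mean of each gene. Over the 6 libraries, the 5 profiles nearest to that of VASP included those of ETV4 (0.28), SDC4 (0.31), COQ3 (0.48) and RCOR2 (0.48). ETV4, an ETS transcription factor, had 91.3, 83.2 and 82.5 CPM in n.t. and 5.01, 5.04 and 4.69 CPM in maltonis-treated libraries. These genes had log2 fold changes from −5.95 in COQ3 to −4.12 in ETV4. COQ3 had 0.207, 0.268 and 0.248 CPM in maltonis-treated libraries, less than the 0.5 added before the log, so its distance depends on that offset. SDC4, at 0.929, 1.04 and 1.31 CPM there, and RCOR2, at 0.671, 1.25 and 0.887 CPM, were little above it. Their distances depend on the offset as well.

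Zyxin, the LIM protein that recruits VASP to focal adhesions and stress fibres, had 249, 281 and 282 CPM in n.t. and 193, 156 and 147 CPM in maltonis-treated libraries. The groups did not overlap, with means of 271 ± 19.1 and 165 ± 24.2 CPM (SD, n = 3) and a log2 fold change of −0.71 ± 0.10 (SE). Replicate 1 differed less than the others, by −0.37 on the log2 scale, against a log2 fold change of −0.90 in replicates 2 and 3 alone. VASP counts were 0.422 ± 0.0493 of ZYX counts in n.t. and 0.0383 ± 0.00879 of them in maltonis-treated libraries.

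Vinculin, which links adhesion receptors to actin through talin, was measured at 69.0, 64.4 and 71.3 CPM in n.t. libraries. After maltonis it stood at 96.1, 90.6 and 90.0 CPM, above every n.t. library. The means were 68.2 ± 3.50 and 92.2 ± 3.38 CPM (SD, n = 3), a 1.35-fold higher level with a log2 fold change of 0.43 ± 0.06 (SE). Within the adhesion pair, ZYX was thus lower and VCL higher, and both directions were present in replicate 1 (VCL log2 difference 0.47) and in replicates 2 and 3 alone (0.41).

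WAS, the blood-cell activator of the Arp2/3 complex, had 19.5, 21.0 and 21.2 CPM in n.t. and 27.8, 21.2 and 18.4 CPM in maltonis-treated libraries. The treated libraries lay on both sides of the n.t. ones, so no difference beyond their spread was seen (log2 fold change 0.11 ± 0.14 SE). The sign depended on maltonis replicate 1: the log2 difference was 0.50 in replicate 1, and the log2 fold change was −0.09 in replicates 2 and 3 alone and −0.08 without maltonis replicate 1.

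Profilin had 695, 620.4 and 522 CPM in n.t. and 614, 475 and 462 CPM in maltonis-treated libraries. The highest treated library exceeded the lowest n.t. one, and the log2 fold change was −0.24 ± 0.13 (SE). Blocking on the replicate number gave a log2 fold change of −0.25, and PFN1 fell under the FDR threshold, as it did in replicates 2 and 3 alone at −0.29. Cofilin, in contrast, separated fully, at 1217, 1140.4 and 1076 CPM in n.t. and 851, 761 and 789 CPM in treated libraries. Its log2 fold change was −0.52 ± 0.07 (SE), and the same value was found in replicate 1 and in replicates 2 and 3 alone. The ratio of CFL1 to PFN1 counts was 1.88 ± 0.161 in n.t. and 1.56 ± 0.165 in maltonis-treated libraries (SD, n = 3), without overlap.

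The cytoplasmic actins had the highest CPM of the 10 genes. ACTB, the beta-actin often used to normalize other genes, had 6021, 5861 and 5398 CPM in n.t. and 6061, 4974 and 4990.3 CPM in maltonis-treated libraries. The range of the treated group spanned that of the n.t. group, with a log2 fold change of −0.11 ± 0.09 (SE), which was 0.01 when libraries were scaled by total counts only, a scaling that puts the median of all genes at 0.13. ACTG1, the gamma-actin, had 1548, 1665 and 1599.8 CPM in n.t. libraries. In maltonis-treated libraries it had 2634, 2618 and 2692 CPM, far above all n.t. ones, with a log2 fold change of 0.72 ± 0.06 (SE). The ratio of ACTG1 to ACTB counts, which no scaling affects, was 0.257, 0.284 and 0.296 in n.t. and 0.435, 0.526 and 0.539 in maltonis-treated replicates. Both genes together took 0.733%, 0.714% and 0.673% of all counts in n.t. and 0.911%, 0.790% and 0.797% in treated replicates. Reads of actins, profilin and cofilin can match near-identical copies elsewhere in the genome, and as the handling of such reads is not stated, their levels are uncertain to that extent.

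**Figure D3:**
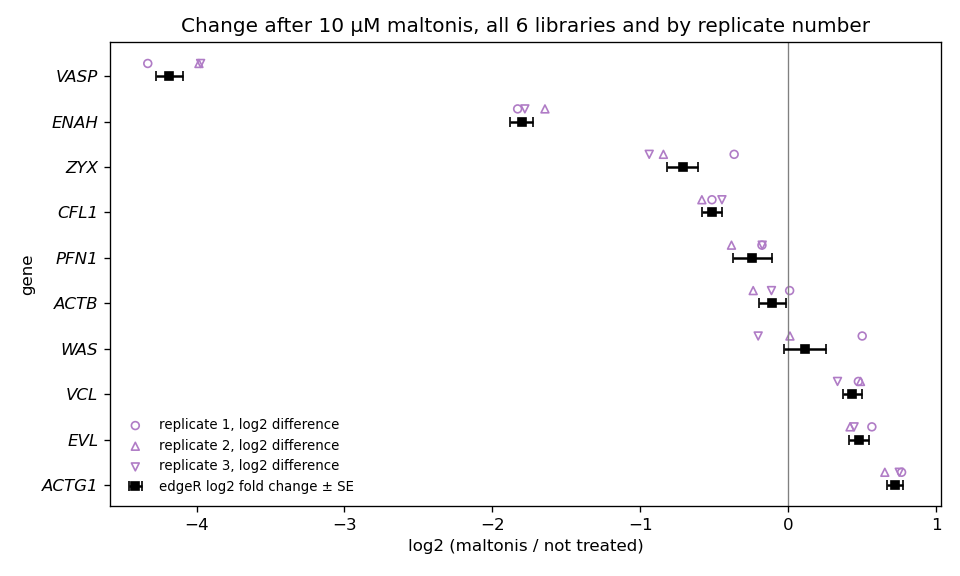
Log2 ratio of maltonis-treated to n.t. cells for the 10 genes, ordered from lowest to highest, with black squares for edgeR’s log2 fold change over all 6 libraries (bars, SE) and open symbols for the log2 difference within each replicate number. VASP lies at −4.18 and ACTG1 at 0.72, and the open symbols of WAS fall on both sides of 0.

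Per length of all annotated exons, the order of the n.t. levels was ACTB (1637 RPKM), ACTG1 (536), PFN1 (308), CFL1 (195), ZYX (77.7), VASP (31.5), WAS (8.64), VCL (6.83), EVL (5.72) and ENAH (2.26), and no neighbours in this order overlapped. After maltonis VASP stood ninth, at 1.72 ± 0.188 RPKM, between EVL at 7.99 and ENAH at 0.649 RPKM. WAS and VCL, at 9.43 and 9.23 RPKM, could not be ordered beyond their spread. RefSeq-linked lengths changed the place of CFL1 and EVL, and left WAS and VCL overlapping in both groups. CFL1 then came second in n.t. cells at 927 RPKM, ahead of ACTG1 at 750.0 and PFN1 at 474 RPKM, and EVL seventh at 30.7 RPKM, behind VASP at 49.2 RPKM. After maltonis VASP was ninth on this scale as well, at 2.68 ± 0.294 RPKM, above ENAH at 0.741 RPKM.

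Outside these 10 genes, 160 genes of the actin machinery were grouped by role, and 143 of them could be tested. Of these, 25 were higher (17.5%, against 31.9% of all genes tested) and 58 lower (40.6%, against 32.1%) at an FDR under 0.01, and 60 did not pass. Their median log2 fold change was −0.15. By all criteria 1 was upregulated (0.699%, against 1.55% of all genes tested) and 4 were downregulated (2.8%, against 3.18%). Among the named genes that passed, the groups did not overlap and the adjusted p ranged from 4.13e-08 (DBN1) to 0.00653 (PRKACA), by the same edgeR test over all genes.

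The partners of VASP at adhesions went both ways, with 4 of 19 tested higher (21.1%) and 6 lower (31.6%). Over all genes tested these shares were 31.9% and 32.1%, the values to set beside each list below. Nothing is read from lists near these shares. LPP, a zyxin relative that binds VASP, rose by a log2 fold change of 2.33 ± 0.13 (SE), from 9.52 to 48.3 CPM, and SKAP2, an adaptor of integrin signalling, by 1.16. AJUBA, another LIM protein, had a log2 fold change of −2.36, and PARVB, which joins integrin-linked kinase to actin, one of −1.72. The 9 subunits of the Arp2/3 complex, the nucleator that WAS activates, had ARPC5 higher (0.51), ARPC2 lower (−0.58) and 7 members not passing. That was 11.1% of them in each direction. Of 17 nucleation-promoting factors, 6 were higher (35.3%), WASF1 (1.04) and WHAMM (0.98) the most. The 7 lower ones (41.2%) were led by WASF3 (−2.82) and cortactin CTTN (−2.48). Formins, which elongate unbranched filaments as VASP does, numbered 2 higher (16.7%) and 5 lower (41.7%) of 12. The lowest were FMNL2 at −2.97 and FMNL3 at −1.79. Both increases rested on few reads: FMN1 had 1, 0 and 1 counts in n.t. and 8, 20 and 13 in treated replicates, a ratio of 22.3 (95% exact counting interval 5.79 to 190.3) with scaled libraries, and FHDC1 had 4, 3 and 9 and then 23, 48 and 29 counts.

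Among 22 genes of monomer binding and turnover, the list closest to PFN1 and CFL1, 4 were higher (18.2%) and 8 lower (36.4%). CORO1B, a coronin of branched filaments, was the 1 gene upregulated by all criteria, from 13.2 ± 1.31 to 85.5 ± 7.87 CPM (log2 fold change 2.70), and WDR1, the cofilin cofactor, had a log2 fold change of 0.62. CFL2, the muscle-type cofilin, was lower by −1.86, and GMFB, which removes branches, was downregulated by all criteria (−1.54). Capping and severing proteins, some of which compete with VASP for filament ends, had 1 of 10 higher (10.0%) and 2 lower (20.0%). FLII was higher (0.29), and EPS8 (from 11.4 to 5.70 CPM) and ADD3 (−0.29) were lower. Crosslinkers, tropomyosins, myosins and membrane linkers had 4 of 25 higher (16.0%), led by MYO1G (1.24) and CNN2 (1.01), and 14 lower (56.0%). Of the latter DBN1 (−2.84), the bundling protein FSCN1 (from 819 to 205 CPM) and COTL1 (−1.88) were downregulated by all criteria. Of 3 kinases of VASP that were tested, PRKACA was higher (0.69) and PRKAA1 lower (−0.49), which is 33.3% in each direction. SRF, which drives actin genes, was itself lower (−0.58), as was ELK3 (−1.65), with MKL2 higher (0.77) and 3 of 6 not passing. In this list 16.7% were higher and 33.3% lower. Of the 5 other actin isoforms only ACTA2 had enough counts, and it did not pass (−0.31, adjusted p = 0.0524 by the same edgeR test).

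Counts in small lists changed when single libraries were left out. Without maltonis replicate 2, 1 adhesion partner was higher in place of 4 (2 without n.t. replicate 2 or maltonis replicate 3), and PRKACA, MKL2, FLII and SKAP2 no longer passed, although their log2 fold changes were then 0.71, 0.71, 0.29 and 1.11, close to those with all libraries. Without n.t. replicate 2 or any 1 maltonis library, 3 formins were lower in place of 5. Scaling by total counts gave 8 higher adhesion partners in place of 4.

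**Figure D4:**
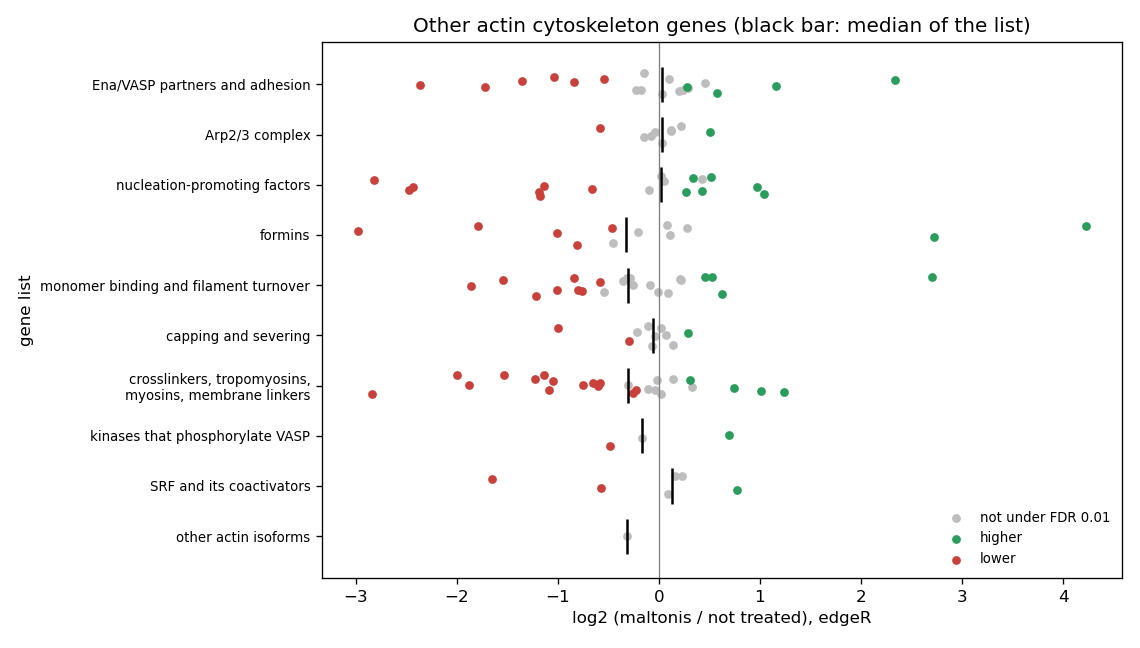
Log2 fold change of each tested gene of 10 actin lists (points, spread vertically for visibility), coloured green where higher, red where lower and grey where not under an FDR of 0.01, with a black bar at the median of each list. Medians are close for the formins (−0.33), the list with crosslinkers (−0.31) and the list with filament turnover (−0.30). Their order changes with single libraries left out: without n.t. replicate 3 the crosslinker list is at −0.50 and the formins at −0.27. The adhesion partners are spread around a median of 0.03.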

How the data were processed

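RNA-seq of NB4 cells covered 3 n.t. and 3 maltonis-treated libraries. The authors deposited raw counts, whole numbers of reads per gene symbol, without normalization. The submitters' processing notes name TopHat, Bowtie2, HTSeq and hg19, without role or order, and the annotation and strand setting are not given in the sources used here, so overlapping and antisense genes are uncertain. The edgeR package (4.0.16, R 4.3.3) was run over both groups (filterByExpr, TMM scaling, quasi-likelihood test), adjusted over 13209 genes and tested on simulated data. The SE of a log2 fold change is its absolute size divided by the square root of the F statistic of that test. It is not the spread between replicate libraries. RPKM used GENCODE exon lengths, found for 21671 of 23368 symbols. Differences within a replicate number and distances between profiles used log2(CPM + 0.5). Promoters are RefSeq windows on GRCh38.p14, a build other than that of the counts. Tables were made with Python 3.11.15 and pandas 2.3.3.

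The genes, lists and rules were chosen with earlier results of these data known. From each list the 2 largest increases and decreases under the FDR were named, and COTL1 was added after its value was seen. A list that counts in the totals, 1 marker and 1 of the 5 profiles nearest to VASP are not reported here. No replicate pair agreed within sampling noise. The study calls the libraries biological replicates, and the labels state neither separate cultures nor shared ones for equal replicate numbers. Deviations from the group means correlated by 0.413, 0.137 and 0.22 for numbers 1, 2 and 3. As replicate 1 of both groups carries its own library-name code, these correlations cannot show that equal numbers were pairs. The main fit did not use replicate numbers, and pairing entered only as a block among the alternatives. Alternatives covered scaling, filter, prior count, DESeq2 1.42.0, the block, length, the RPKM criterion, replicate subsets and each library left out.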

Additional observations from a re-analysis of the deposited data

How the results depend on the processing

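The direction of VASP, EVL, ENAH, ZYX, PFN1, CFL1, ACTG1 and VCL held under every alternative run. The log2 fold change of VASP was −4.07 with total counts as the scaling, and from −4.27 to −4.13 with each library left out. Its log2 difference was −4.33 in replicate 1, against −3.98 and −3.97 in replicates 2 and 3. ACTB and WAS changed sign without a call. In every leave-one-out fit 3 of the 10 genes were higher and 4 lower. With the replicate number as a block, which pairs the libraries, these were 3 and 5, VASP was at −4.18, and 31 actin-machinery genes were higher and 62 lower. That set had from 16 (without maltonis replicate 2) to 26 higher and from 53 to 64 lower genes with each library left out. Total counts gave 35 higher and 53 lower. Dropping the RPKM criterion gave 4 upregulated and 15 downregulated genes in place of 1 and 4. The share of all genes without that criterion is not given, so nothing is read from these counts. The share of VASP in its family rested on the length: with RefSeq-linked exons it was 59.6% in n.t. and 5.83% in treated cells. Of 560 values of named actin-machinery and marker genes under alternatives, 543 stayed on their side of the threshold, 17 no longer passed and none reversed; besides those without maltonis replicate 2 these were ADD3 with total counts or upper quartile scaling, PRKACA without n.t. replicate 1, n.t. replicate 2 or maltonis replicate 1, MKL2 without n.t. replicate 2, maltonis replicate 1 or maltonis replicate 3, SKAP2 without maltonis replicate 3, and the marker PECAM1 without n.t. replicate 2 or any 1 maltonis library. The cause of these differences was not tested. With 3 libraries per group, depth limits mainly the genes with few counts, such as FMN1.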

Other observations

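Some genes next to ENAH were lower, at an FDR under which 32.1% of all genes tested were lower. A link to the level of ENAH was not tested. EPHX1, an epoxide hydrolase, had a log2 fold change of −2.06 ± 0.18 (SE, adjusted p = 1.06e-05, edgeR), DNAH14, a dynein heavy chain, one of −1.03 ± 0.11 (adjusted p = 3.01e-05, edgeR) and LBR, the lamin B receptor, one of −0.29 ± 0.06 (adjusted p = 0.00206, edgeR), with no overlap between the groups of 3 libraries, while SRP9 did not pass (−0.24, adjusted p = 0.0331, edgeR). Of the 4 genes around EVL only YY1, a zinc finger transcription factor, had enough counts to be tested, and it was lower (−0.31 ± 0.06 SE, adjusted p = 0.00157, edgeR) where EVL was higher.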
